A study of Rattus norvegicus with 6 samples.

Results

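Arc, the gene of the activity-regulated cytoskeleton-associated protein, was followed in organotypic cultures of the rat hippocampus after a block of inhibition. It is 1 of 14218 genes that the Affymetrix RAT2302 array names singly. Of 31099 probe sets, 1 carries Arc as its only gene symbol in the platform annotation (probe set 1387068_at, NCBI gene 54323), and 0 probe sets name Arc beside other genes. This probe set holds all the Arc data of the series. Arc is also an old synonym of Nol3, a repressor of apoptosis, whose 1 probe set was not counted. The cultures were slices of Wistar rat pups, of postnatal day 4 in the labels and day 4 to 5 in the methods, and each of the 3 replicas came from 2 littermates. One part of the cultures of each replica received 20 µM gabazine for 90 min (GabT) and the other part was left untreated, which gives 3 control and 3 gabazine arrays. Gabazine is an antagonist of GABA-A receptors, through which most fast synaptic inhibition runs. A slice holds neurons and glia together, so that more Arc RNA per cell and more cells with Arc RNA cannot be told apart. No genotype was altered and no other agent is given for any group.

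Arc is an immediate early gene, which neurons transcribe within minutes of strong synaptic input and without prior protein synthesis. Its messenger RNA is carried into dendrites, where the protein works with the endocytic machinery and takes AMPA-type glutamate receptors off the synapse. In the hippocampus Arc RNA is widely used as a mark of neurons that were recently active, and the protein is known for its part in lasting memory and in the scaling down of synapses.

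The Arc level was higher after GabT in each of the 3 replicas, as were 6.92% of all probe sets, while 9.49% were lower in each. In the control arrays Arc stood at a log2 intensity of 10.66, 9.60 and 9.52 in replicas 1, 2 and 3. In the gabazine arrays it stood at 13.23, 11.66 and 13.23. The group means were 9.93 ± 0.63 and 12.71 ± 0.90 (SD, n = 3 each). The lowest gabazine array lay 1.01 above the highest control array on the log2 scale, so the groups did not overlap, and 0.289% of all probe sets were parted in this way. The spread within the groups was large, as the levels covered a range of 1.14 among the controls and 1.57 among the gabazine arrays. The arrays of replica 2 were lower as a whole, since the median of all probe sets was 7.90 and 7.89 on the control and gabazine arrays of replica 2 and between 8.63 and 8.71 on the others.

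Set against the median of its own array, Arc was 2.03, 1.70 and 0.81 higher in the controls of replicas 1, 2 and 3 and 4.53, 3.78 and 4.55 higher in the gabazine arrays. On this scale the range among the gabazine arrays was 0.77 and that among the controls was 1.21. The gabazine arrays of replicas 1 and 3 held nearly the same Arc level, with a difference of -0.01 on the deposited scale, while the control of replica 3 was below that of replica 1 by a log2 difference of -1.14. The distance between the groups was 1.75 on the scale of the array medians.

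**Figure D1:**
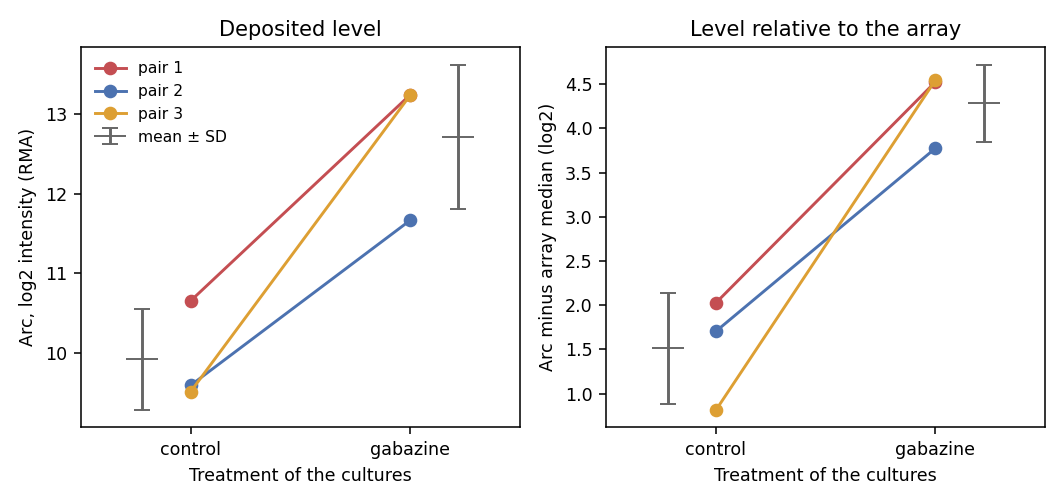
Arc level on each of the 6 arrays as deposited (left, log2 intensity) and relative to the median of its array (right, log2), with a line joining the control and gabazine array of a replica and the mean ± SD of 3 arrays in grey. All 3 lines go up, and the controls of replicas 1 and 3 lie 1.14 apart while their gabazine arrays nearly coincide.

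The difference within a replica answers how far the treated cultures moved from the untreated cultures of the same littermates. Replica by replica, the log2 ratio of gabazine over control was 2.58, 2.06 and 3.71 in pairs 1, 2 and 3. On the linear scale these are ratios of 5.96, 4.18 and 13.1. Pair 3 had the highest ratio and the lowest control level, and pair 2 had the lowest ratio. The mean was 2.78 with an SD of 0.84 over the 3 pairs, which corresponds to a 6.88-fold higher level. In limma, with the replica as a block, the standard error was 0.40 and the 95% interval ran from 1.48 to 4.08, or from 2.80-fold to 16.9-fold.

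This difference did not pass the test over the whole array. The unadjusted p of limma was 0.00669, and its Benjamini-Hochberg adjusted p over all probe sets was 0.747. With adjustment limma called 0 probe sets in either direction at 0.05 (0%), while an unadjusted p under 0.05 was reached by 1.84% in the higher and 2.68% in the lower direction. Fitted without the pairing, the same mean had an adjusted p of 0.00119 in limma, so that the call for Arc depends on the block. An exact 2-sided sign-flip test over the 3 pairs gave p = 0.25 and an exact 2-sided permutation test of 3 against 3 arrays gave p = 0.1, each of which is the smallest value that the design allows. The study itself took its p-values from the joint empirical distribution of the 3 replicas, which was not repeated here. It also measured Arc by RT-PCR in 3 biological replicates and reported it as higher after GabT.

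The size of the Arc difference and the smallness of its p stood at different places among the probe sets. By mean log2 ratio Arc was number 6 of 31099, and by p it was number 173. Of the 172 probe sets with a smaller p, 109 had a mean log2 ratio between -0.5 and 0.5 and 4 had a larger difference than Arc. The SD of 0.84 between the pairs was higher than that of 97.4% of the probe sets, whose median was 0.163.

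Within each pair Arc belonged to the highest ratios of the array. In pair 1 it was number 71 of 31099 probe sets, in pair 2 number 18 and in pair 3 number 2. Counting the brightest probe set of each of 14218 genes with 1 symbol, Arc was number 13, 7 and 2. The width of the pairs differed, and the SD of all log2 ratios was 0.475, 0.247 and 0.230. In these units the Arc ratio amounted to 5.42, 8.34 and 16.1 SD. Pair 1, where Arc ranked lowest, held many ratios as high as that of Arc, but most of them did not recur. Of the 70 probe sets above Arc in pair 1, 53 had a log2 ratio under 1 in both other pairs. A single probe set was above Arc in pair 3, that of Fosb, a Fos family member that pairs with Jun proteins, at 4.18.

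Over the 3 pairs together, 0 other probe sets had a ratio at least as high as that of Arc in every pair, and 8 did so in 2 pairs. Arc was 1 of 9 probe sets that were more than 4-fold higher in all 3 pairs, which is 0.0289% of the array, and 0.103% were more than 2-fold higher in all 3. The other 8 are those of Homer1, Nr4a3, Rgs2 and Egr2, both probe sets of Nr4a2, and 2 unnamed ones. The probe sets with a higher mean than Arc were 5 in number. Nr4a3, a nuclear receptor with no known hormone, led with a mean log2 ratio of 3.39 (standard error 0.18). Its paralog Nr4a2 had 3.25 (standard error 0.27) on this probe set, and Fosb had 3.15 (standard error 0.59). Homer1, a scaffold of the postsynaptic density, had 3.09 (standard error 0.20), and 1 unnamed probe set had 2.97 (standard error 0.27). The spread of Arc, whose pairs ran from 2.06 to 3.71, lay between that of Fosb, from 1.77 to 4.18, and those of Nr4a3 and Homer1. The pairs of Nr4a3 ran from 3.09 to 3.82 and those of Homer1 from 2.67 to 3.52.

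**Figure D2:**
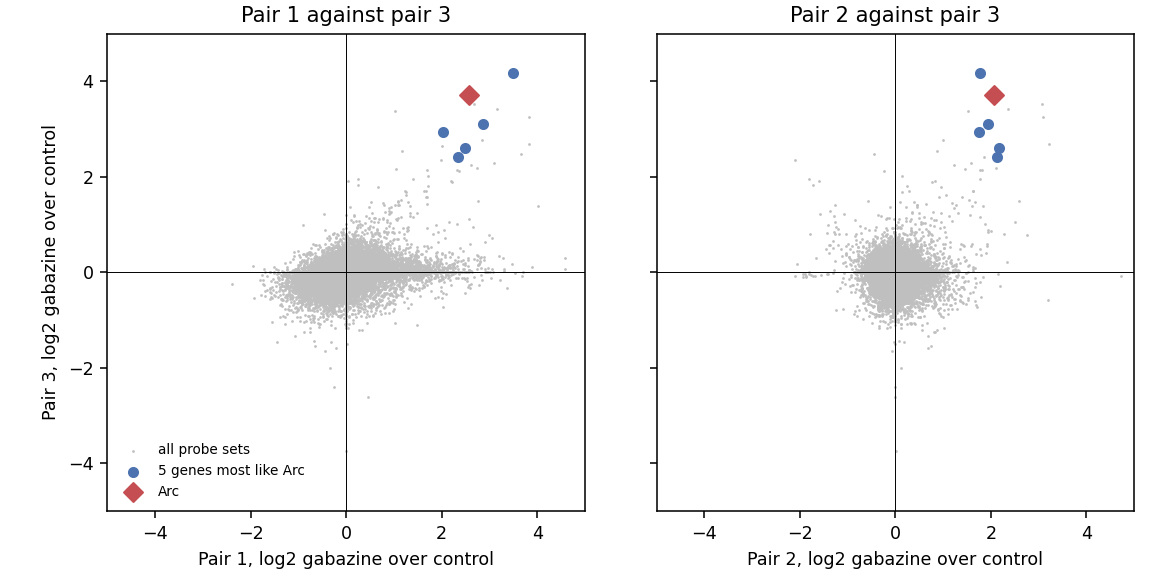
Log2 ratio of gabazine over control in pair 3 against pair 1 (left) and pair 2 (right), with 1 grey dot for each of 31099 probe sets, Arc as a red diamond and the 5 genes most like it in blue. Arc, at 2.58, 2.06 and 3.71 in pairs 1, 2 and 3, lies in the upper right corner of both panels, and the grey cloud is widest along the axis of pair 1.

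Several technical readings moved with the pairs, and their part in the Arc values was not tested. The transcripts that are added at the hybridization step, measured by 18 probe sets, had a median log2 ratio of -1.75 in pair 2, where Arc had its lowest ratio. It was 0.03 in pair 1 and -0.05 in pair 3. In pair 1 the control transcripts of the rat itself, actin, Gapdh and hexokinase, had ratios at the 5' end above those at the 3' end by 0.38 to 1.70 on the log2 scale, against -0.25 to 0.10 in pairs 2 and 3. For polyA RNA added to the samples, with 8 such readings, this difference had a median of 1.05 in pair 1 (0.43 to 1.37), 0.36 in pair 2 (0.04 to 0.93) and -0.04 in pair 3 (-0.20 to 0.17). On its 3' probe set Gapdh had a mean log2 ratio of 0.07 (standard error 0.04). The 3' probe set of beta-actin was higher in all 3 pairs, with 0.47, 0.10 and 0.23 and a mean of 0.27 (standard error 0.09). In pair 1 the control and gabazine values were identical for 16.1% of probe sets, in pair 2 for 24.1% and in pair 3 for 25.7%, and Arc was tied in 0 pairs.

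Arc RNA in the hippocampus comes mainly from excitatory neurons, so their markers were read beside it, with some of neurons in general. Of these 8 markers, among which Rbfox3, Snap25 and Syt1 are not limited to excitatory neurons, 0 had the same sign in all 3 pairs. Their median log2 ratio was -0.01, 0.30 and 0.06 in pairs 1, 2 and 3. The mean level of these 8 genes was 11.53, 10.62 and 11.71 in the controls of replicas 1, 2 and 3. In the gabazine arrays it was 11.72, 10.92 and 11.76. The groups overlapped, but within each replica this mean level was higher after GabT. The highest of the 8 genes was Syt1, a calcium sensor of synaptic vesicles, at 2.53 in pair 1 and -0.05 and -0.12 in the others. The lowest was Prox1, a factor of dentate granule cells, with a mean of -0.18. Of 30 markers of interneurons, astrocytes, oligodendrocytes, microglia, choroid plexus and vessels, 8 were higher and 2 lower in all 3 pairs, against 7.79% and 10.8% of all genes. Of the 5 measured oligodendrocyte markers 3 were higher in all 3 pairs and 0 lower. Among them Mog, a protein of the outer myelin sheath, had a mean of 0.36 (unadjusted p = 0.0158 in limma) and Mbp, a main protein of compact myelin, had 0.24 (unadjusted p = 0.0294), and neither passed over all probe sets. Mbp was neither the highest nor the lowest of its list, and its other 2 probe sets had means of -0.07 and 0.81. Ttr, made by the choroid plexus, was at 4.59 in pair 1 and at 0.14 and 0.07 in pairs 2 and 3, and the mean level of the choroid plexus and vessel list was 6.92 to 7.35 in the controls and 6.83 to 7.86 in the gabazine arrays. The part of these markers in the Arc values was not tested.

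On brightest probe sets, the genes closest to Arc in their pattern were nuclear receptors and transcription factors of the immediate early class. Likeness was taken as the Euclidean distance between the 3 pair ratios of a gene and those of Arc, over 3 pairs and 14217 other genes on their brightest probe sets. Unnamed probe sets and those that are not the brightest of their gene were not compared. Among the latter is that of Homer1 with 2.67, 3.07 and 3.52 in pairs 1, 2 and 3, so the kinds of gene found depend on this choice. The median distance was 4.97, and 10 genes lay within 2. Nr4a1, an orphan nuclear receptor, was the nearest at a distance of 0.69, with log2 ratios of 2.87, 1.94 and 3.10 in pairs 1, 2 and 3. Its level was 10.38, 9.98 and 9.36 in the controls and 13.25, 11.91 and 12.46 in the gabazine arrays of replicas 1, 2 and 3, so that its groups too did not overlap and its lowest control was that of replica 3, as for Arc.

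Egr4, a zinc finger transcription factor, followed at a distance of 0.99, with ratios of 2.03, 1.74 and 2.94, while its other probe set had a mean of 0.55. Fosb came next at 1.08, with 3.50, 1.77 and 4.18. Nr4a2 was at 1.12, with 2.49, 2.17 and 2.60 on its brightest probe set and 3.83, 3.22 and 2.69 on its other. Egr2, a further zinc finger factor, was at 1.32, with 2.34, 2.12 and 2.41, whereas its other probe set had 3.48, 0.10 and 0.16. On the brightest probe sets the ratio was lowest in pair 2 and highest in pair 3 in all 5 genes, as in Arc, and the choice by likeness favours this order. The other probe sets of Nr4a2 and Egr2 did not have it. When likeness was taken as the largest difference in any pair, 4 of the 5 were again among the nearest 5, and Fosl2, a Fos-related factor with 2.83, 0.99 and 2.76, stood in the place of Egr2.

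The study examined the binding of serum response factor (SRF), a transcription factor that responds to growth signals and synaptic input, at the promoters of Arc and of 6 other genes, and these 6 were set beside Arc here. It reported SRF binding at Arc, Fos, Egr1, Egr2, Cyr61 and Nr4a1, but no significant binding at Rgs2, so the 6 are not all SRF-bound genes. On their brightest probe sets 6 of the 6 were higher in all 3 pairs, against 7.79% of all genes. With an unadjusted p under 0.05 in limma 6 were higher, against 2.37% of all genes, and 0 of the 6 passed over all probe sets. The study chose these genes among the highest of the same arrays, so their direction is not independent evidence. Their median log2 ratio was 1.59, against -0.01 for all genes. The ratio was lowest in pair 2 and highest in pair 3 for 5 of the 6, and 18% of all genes have this order.

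On the brightest probe sets Arc had the highest mean of these 7 genes. This order is that of the arrays, and by RT-PCR the study found Nr4a1 and Egr2 more strongly raised than Arc. Fos had log2 ratios of 1.06, 0.86 and 1.09 from pair 1 to pair 3, although a second probe set for it gave a mean of 0.08. Those of Egr1 were 1.25, 1.07 and 1.63. Rgs2 had 1.62, 1.63 and 1.71, nearly equal in the pairs, whereas Cyr61 had 1.17, 0.87 and 2.54 and so shared the high value of Arc in pair 3. Arc was above Fos, a classic immediate early gene, by 1.78 ± 0.74 (SD of the difference over 3 pairs) and above Egr1, a zinc finger protein that often serves to mark active neurons, by 1.47 ± 0.56. It was above Rgs2, which speeds the shut-off of G proteins, by 1.13 ± 0.79, and above Cyr61, a matrix protein annotated here as Ccn1, by 1.25 ± 0.13. In these 4 comparisons Arc was higher in 3 of 3 pairs (exact 2-sided sign-flip p = 0.25, the smallest possible, and 0.375 after Benjamini-Hochberg adjustment over the 6 comparisons). Egr2 and Nr4a1 were nearer. Arc was above Egr2 by 0.49 ± 0.71 and above Nr4a1 by 0.15 ± 0.45, in 2 of 3 pairs each, with exact p = 0.5 and 0.75 and adjusted values of 0.6 and 0.75. Ratios of different probe sets also depend on how strongly each probe set responds to its transcript. The mean level of Fos went from 13.27 to 14.28 and that of Egr1 from 12.72 to 14.04, while Arc went from 9.93 to 12.71. The highest value of any probe set lay between 15.04 and 15.41 on the arrays. Whether Fos and Egr1 had less room to rise was not tested. The brightest probe set of Rgs2 gave a mean of 1.65 where the other gave 2.34. On that other probe set Rgs2 had 2.73, 2.11 and 2.17, so Arc was above it in pair 3 only.

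**Figure D3:**
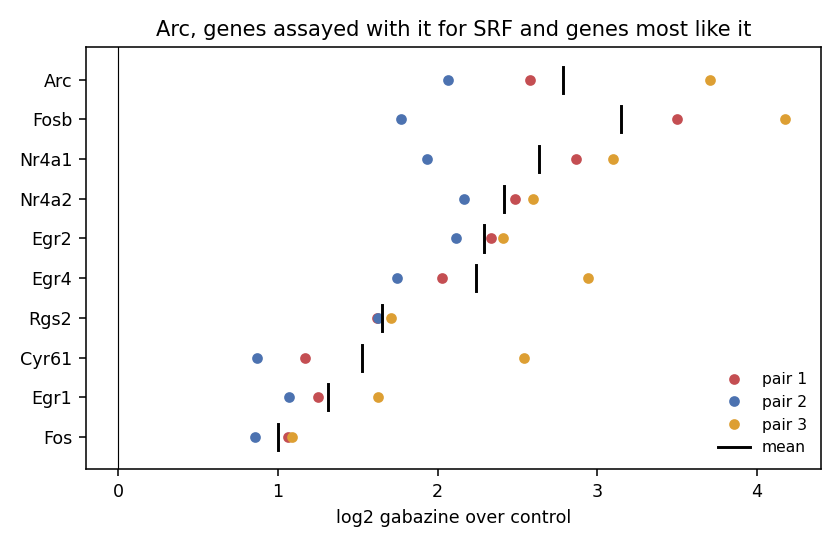
Log2 ratio of gabazine over control for Arc, the 6 genes examined with it for SRF and the 5 genes most like it (9 genes besides Arc, as Nr4a1 and Egr2 are in both), with 1 point per pair and the mean as a bar. Arc, at a mean of 2.78, lies below Fosb and above the others, and the point of pair 2 is the lowest in every gene but Rgs2.

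The genes that act before and after Arc in the synapse had small differences by comparison. They were read in 5 lists with 57 entries, of which 51 had a probe set with 1 symbol. At the adjusted threshold limma called 0 of the 51. In all 3 pairs 3 were higher (5.88%), against 7.79% of all genes, and 6 were lower (11.8%), against 10.8% of all genes. A gene with identical control and gabazine values in a pair counted as neither, in the lists and among all genes. With each array centred on its median the counts were 7 higher and 6 lower, with quantile normalization they were 8 and 6, and cyclic loess gave 12 and 5. The list shares higher in all 3 pairs were then 13.7%, 15.7% and 23.5%, against 12.7%, 11.8% and 17.3% of all genes. With the mean over all probe sets of a gene the counts were 10 higher (19.6%, against 10.1% of all genes) and 2 lower (3.92%, against 9.97%), so the place of the lists relative to all genes depends on the processing. The median log2 ratio of the 51 genes was 0.09.

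Of 12 measured synaptic inputs and kinases that lead to Arc transcription, 0 were higher in all 3 pairs and 1 was lower, against 7.79% and 10.8% of all genes. Grin1, Cacna1c, Camk4 and Map2k2 were not counted as higher only because of ties, as their other ratios were above 0. Bdnf, a neurotrophin that can itself induce Arc, had the highest mean at 1.42 (standard error 0.69), with 2.37, -0.24 and 2.12 in pairs 1, 2 and 3. On this probe set its ratio was thus on both sides of 0, which that of Arc was not. The other Bdnf probe set had a mean of 1.07. The lowest mean was that of Ntrk2, the receptor of Bdnf, at -0.14 (standard error 0.05), and its other 4 probe sets had means from -0.20 to 1.44.

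Of 10 measured transcription factors and coactivators that are known to act at the Arc gene, 1 was higher and 2 were lower in all 3 pairs. Srf had 0.56, 0.62 and 0.57 in pairs 1, 2 and 3, with an unadjusted p of 0.000421 in limma, and its other 2 probe sets had means of 0.35 and 0.41. The Srf ratio varied far less between the pairs than that of Arc. Creb1, the factor that binds cAMP response elements, had the lowest mean of the list at -0.30 (standard error 0.08) and an unadjusted p of 0.0384, with means from -0.19 to 0.25 on its 3 other probe sets. Crebbp, its coactivator, had -0.27 (standard error 0.06) and an unadjusted p of 0.0234, with -0.24 to 0.45 on 4 others. Crebbp is named here after its value was seen.

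Of 12 genes of the endocytic machinery that binds Arc and of the AMPA receptors it moves, 2 were higher and 0 lower in all 3 pairs. Sh3gl2, which encodes an endophilin that bends membranes at endocytic sites, had the highest mean at 0.55 (standard error 0.48), with 1.66 in pair 1 and -0.28 and 0.26 in pairs 2 and 3. Ap2m1, a subunit of the clathrin adaptor AP-2, had 0.16, 0.12 and 0.29 and an unadjusted p of 0.0383, and is named after its value was seen. Among the AMPA receptor subunits Gria3 had the lowest mean at -0.19 (standard error 0.34), from -0.97 in pair 1 to 0.44 in pair 2, and its other probe set had a mean of 0.27.

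Of 9 measured partners of Arc in the postsynaptic density, on actin and in the nucleus, 0 were higher and 2 lower in all 3 pairs. The highest mean was that of Camk2a, a kinase of the postsynaptic density, at 0.23 (standard error 0.43), with -0.40, 1.26 and -0.17 from pair 1 to pair 3. Means from -0.43 to 0.24 were found on 3 further Camk2a probe sets. The lowest was that of Sptbn4, a spectrin, at -0.22 (standard error 0.05) with an unadjusted p of 0.0203. Of 8 measured genes of Arc RNA transport and decay and of Arc protein turnover, 0 were higher and 1 lower in all 3 pairs. Pura, a protein of dendritic RNA granules, had the highest mean at 0.46 (standard error 0.39), and Fmr1, the RNA-binding protein that is lost in fragile X syndrome, had the lowest at -0.63 (standard error 0.46). Both means came from pair 1, with 1.41 for Pura and -1.73 for Fmr1, while their values in pairs 2 and 3 lay between -0.16 and 0.00. The unadjusted p of the 5 genes under 0.05 in these lists, which were Srf and Ap2m1 higher and Creb1, Crebbp and Sptbn4 lower, stands beside shares of 2.37% and 2.84% of all genes in the higher and lower direction.

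**Figure D4:**
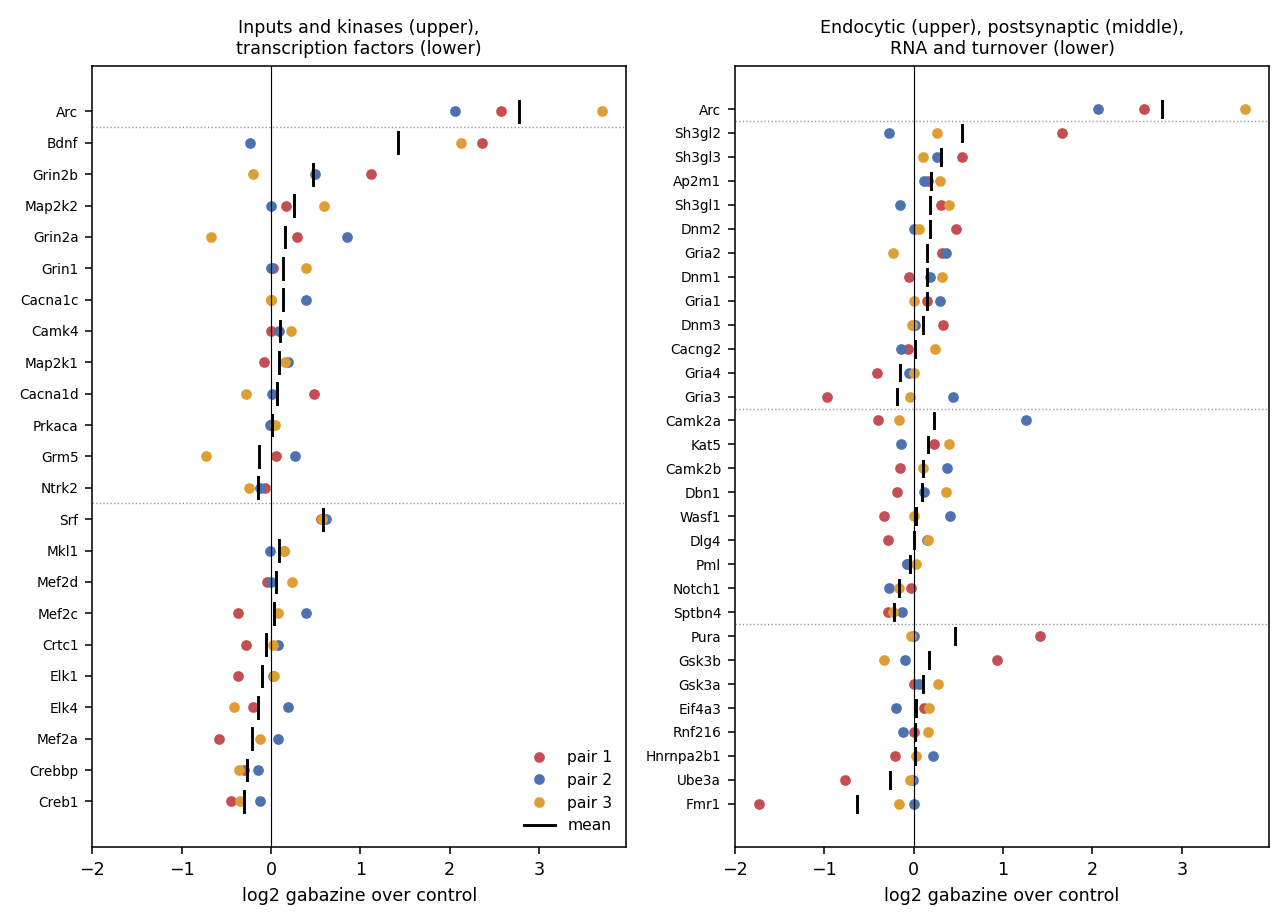
Log2 ratio of gabazine over control for Arc and the 51 measured genes of the 5 lists, on the brightest probe set of each, with 1 point per pair and the mean as a bar. Arc, with all 3 points at 2.06 or more, lies to the right of every list member's mean, of which the highest is Bdnf at 1.42.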

How the data were processed

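The deposited table holds log2 intensities that the authors made from the scanned images of 6 arrays with the RMA procedure (background correction, normalization between arrays and 1 summary value per probe set). Its version, and whether all arrays were normalized together, are not given in the sources used here. No detection measure accompanies the values, so the signal of a dim probe set over background is unknown, and the number of arrays limits the precision. Groups and replica numbers came from the sample titles, and 0 columns were left out. Arrays of the same replica share littermates, and in the methods treated cultures are set against untreated ones of the same replica, so the replica was a block. Their deviations from the group means correlated at 0.794, 0.664 and 0.853 in replicas 1, 2 and 3, and those of unlike replicas at -0.695 to 0.08. Deviations from a group mean sum to 0, so the values of like and unlike replicas are not independent of each other.

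Each probe set was tested with limma 3.58.1 (R 4.3.3, lmFit and eBayes, 2 residual degrees of freedom), with Benjamini-Hochberg adjustment over all 31099 probe sets and a threshold of 0.05. A rank counts the highest ratio as 1. For gene lists the brightest probe set, by its mean over the arrays, stood for each gene with 1 symbol. The annotation gives 20832 probe sets 1 symbol and 436 several, and 9831 are unnamed. Named are the genes examined for SRF, the 5 genes nearest to Arc, the probe sets with a higher mean than Arc, and the highest and lowest member of each of the 5 Arc lists. Of the marker lists only some members are named. Arc and the lists were chosen with earlier results of these data known. Alternatives were no pairing, each replica left out, 3 other scalings, a filter on the dimmest 40% of probe sets, a trended and robust eBayes, the mean over the probe sets of a gene, and another measure of likeness.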

Additional observations from a re-analysis of the deposited data

How the results depend on the processing

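The mean log2 ratio of Arc was above 0 under every setting that was run. It ran from 2.32 to 3.14 without replica 1, 2 or 3, and its adjusted p in limma lay between 0.679 and 0.865 under the 8 settings that kept the block. With no replicate block the log2 ratio was again 2.78 and had an adjusted p of 0.00119 in limma, with a standard error of 0.54. The block then also decided the calls of 2 of the 6 genes examined for SRF, Egr2 (adjusted p = 0.049 without it) and Nr4a1 (0.00432), and the fit called 14 probe sets higher and 0 lower. Without the block 1 of the 51 genes of the Arc lists was higher and 0 were lower at an unadjusted p under 0.05, in place of 2 and 3. The rank of Arc in pair 1 was 47 after quantile normalization and 43 with the dimmest probe sets left out, where fewer probe sets compete, and its ranks in pairs 2 and 3 stayed at 18 and 2 under the 4 settings of scaling and filtering. The number of other probe sets at least as high as Arc in all pairs remained 0 under these 4. Genes of the Arc lists that were higher in every remaining pair numbered 10 to 14 without 1 replica and those lower numbered 7 to 11, where fewer pairs have to be alike. The shares higher were 27.5%, 23.5% and 19.6% without replica 1, 2 and 3, against 17.2%, 21.4% and 11.7% of all genes, and those lower were 13.7%, 21.6% and 17.6%, against 14.4%, 21.5% and 25.1%. Those lower at an unadjusted p under 0.05 numbered 0 to 3. Higher in every pair were 7 with centred arrays, 8 after quantile normalization and 12 after cyclic loess, and 1 gene was higher at an unadjusted p under 0.05 after quantile normalization, after cyclic loess or with the filter. With the mean over all probe sets of a gene 10 were higher and 2 lower in every pair (19.6% and 3.92%, against 10.1% and 9.97% of all genes), and 1 was lower at an unadjusted p under 0.05. The causes of these shifts were not tested.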
